A study of Zea mays with 6 samples.

Results

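The benzoxazinoid synthesis genes bx1 to bx8 of maize (Zea mays) were examined in leaf RNA sequencing of the inbred lines B73 and W9706. The genes were chosen by their identifiers as members of the pathway, with earlier results of these data known. They are 8 of the 46430 genes listed in the files. B73, from which the maize reference genome was made and which is labelled as wild type, and W9706, for which the labels give the line name alone, were each sampled as 3 libraries from the third leaf of seedlings under drought at day 7. Plants had been grown in soil to the stage of 3 leaves. All 6 libraries come from droughted plants and watered plants are not analysed here, so the contrast is one of lines under drought and not a response to drought. The labels do not say whether the replicates came from separate plants, so the spread behind each p-value is that between libraries and may be technical.

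Benzoxazinoids are defence compounds of maize and other grasses, stored in the young plant as glucosides and released when tissue is wounded by insects or fungi. The pathway branches off tryptophan synthesis. The enzyme BX1 releases indole in the plastid, and BX2, BX3, BX4 and BX5, related cytochrome monooxygenases, each add an oxygen in turn to give DIBOA. BX8 is a glucosyltransferase that makes the product storable and harmless to the plant, BX6 is a dioxygenase that hydroxylates the glucoside, and BX7 is a methyltransferase whose product is the glucoside of DIMBOA. Many of the genes lie close together on 1 chromosome arm.

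All 8 symbols were found in the RefSeq gene table (Zm-B73-REFERENCE-NAM-5.0 assembly, consulted solely for symbols and gene order), and all 8 lie on chromosome 4 there. Their order in that table was bx6, bx3, bx4, bx5, bx8, bx1, bx2 and bx7. The identifiers fall in the same order by number, from Zm00001d048634 (bx6) through Zm00001d048702 (bx3), Zm00001d048703 (bx4), Zm00001d048705 (bx5), Zm00001d048707 (bx8), Zm00001d048709 (bx1) and Zm00001d048710 (bx2) to Zm00001d049179 (bx7). The 6 genes from bx3 to bx2 are called the cluster here. The table lists 9 genes from bx3 to bx2, both included, 8 of them protein coding. The genes bx6 and bx7 have identifiers further away and are described apart.

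Libraries held 21084151 to 32088105 counts assigned to genes. Correlations of log2 CPM (CPM, counts scaled by the TMM-corrected library total) ranged from 0.970 to 0.985 among libraries of the same line and from 0.897 to 0.943 across lines. The share of unmapped reads overlapped between lines, with 12.7% to 13.8% for B73 and 13.0% to 13.5% for W9706. Reads in no annotated gene were 3.68% to 3.79% of the B73 reads and 4.18% to 4.33% of the W9706 reads, and the part of this shift in the results below was not tested.

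W9706 differed from B73 at the first steps of the pathway and at its methyltransferase, and the 8 genes did not move as a unit. The genes bx1, bx2 and bx3 were higher in W9706, bx7 was lower, and bx4, bx5, bx6 and bx8 did not pass the test. In all, 3 of the 8 genes were higher and 1 was lower (edgeR quasi-likelihood test, Benjamini-Hochberg adjusted p under 0.05 over all 22135 genes tested). Over all tested genes 34.2% passed in either direction, 15.2% higher and 19.0% lower in W9706. Changes over 2-fold that passed the test made up 13.9% of all tested genes, against 4 of the 8 genes here, and those higher in W9706 made up 5.58%, against 3 of the 8. The lines did not overlap for bx1, bx2 and bx3, above B73 in W9706, and for bx7, below it; over all tested genes 24.8% lay wholly above and 25.8% wholly below, together 50.6%. The median log2 fold change of W9706 over B73 was 0.14 for the 8 genes and 0.01 for all tested genes, while the 8 values ran from -1.78 to 4.66. With library size alone in place of TMM scaling, all genes split into 8165 higher and 2622 lower, against 3367 and 4197 with TMM, and the median of all genes moved to 0.29. The calls of the 8 genes were still 3 higher and 1 lower. Those of bx2 and bx3 were less firm elsewhere. Over 16 alternative fits bx2 lost its call in 9 and bx3 in 6, against 0 for bx1 and 1 for bx7. In bulk leaf RNA, fewer cells that express a gene and less of its RNA per cell cannot be told apart. The counts are of reads assigned to gene models. Whether the lines differ in sequence or copy number at these genes, which could also shift counts, was not tested.

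**Figure D1:**
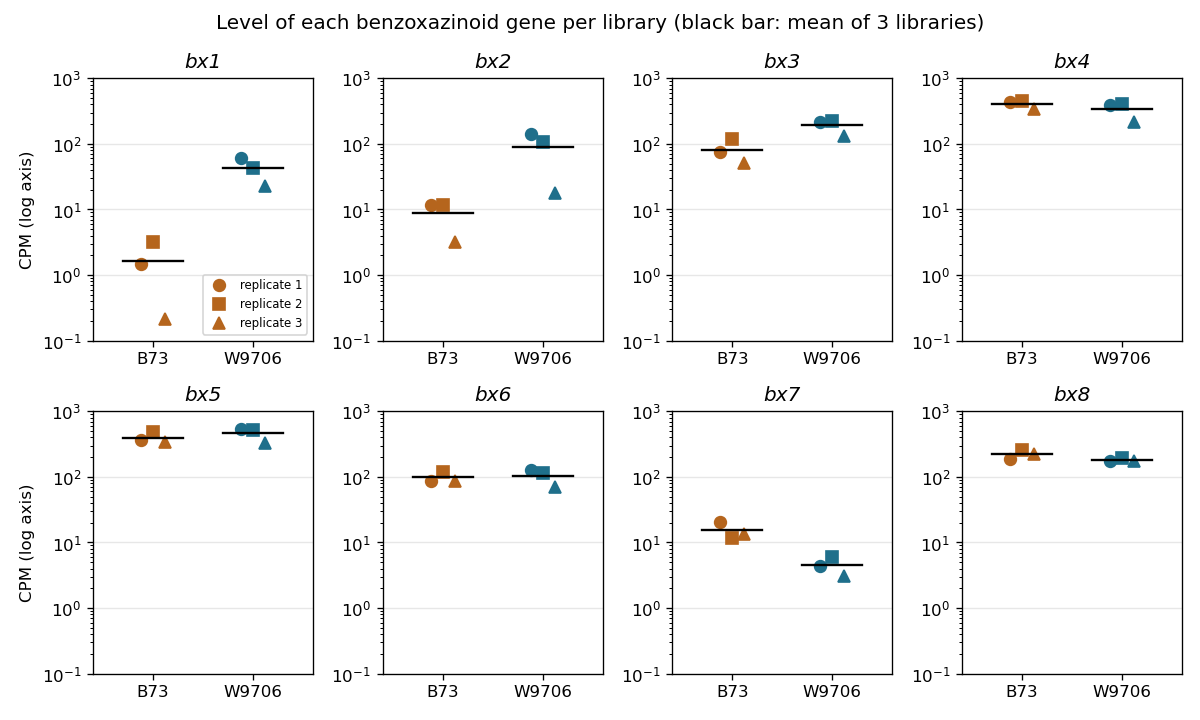
Level of each gene in each library, as CPM on a log axis, with 1 panel per gene and the 3 B73 libraries left of the 3 W9706 libraries; symbols mark the replicate number and black bars the mean of 3 libraries. The lines are set apart for bx1, bx2, bx3 and bx7 and overlap for bx4, bx5, bx6 and bx8.

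The gene bx1, whose enzyme BX1 opens the pathway by releasing indole from indole glycerol phosphate, showed the widest gap between lines among the 8 genes. The 3 B73 libraries, in order of replicate number, had 1.50, 3.19 and 0.213 CPM, and the 3 W9706 libraries had 61.4, 43.5 and 22.7 CPM. Behind these values, in the same order, are 36, 71 and 4 counts for B73 and 1708, 1230 and 800 counts for W9706. The lowest W9706 library therefore lay well above the highest B73 library, and B73 replicate 3 was close to the 0.142 CPM that 3 counts would give in that library. W9706 averaged 42.5 ± 19.4 CPM against 1.63 ± 1.49 CPM for B73 (SD over 3 libraries each). This is a log2 fold change of 4.66 ± 0.71 (SE), 25.3-fold higher (adjusted p = 0.00406, edgeR). By the size of its log2 fold change bx1 ranked 74 among the 22135 genes tested. The call held when any 1 library was left out, and without B73 replicate 2 the log2 fold change was 5.55.

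The gene bx2, whose monooxygenase takes up the indole that BX1 makes, was the next widest. Its levels were 11.7, 11.6 and 3.19 CPM across B73 replicates 1, 2 and 3, and 141, 108 and 18.1 CPM across W9706 replicates 1, 2 and 3. W9706 replicates 1 and 2 were thus far above B73, while W9706 replicate 3 lay only a little above the upper pair of B73 libraries. edgeR gave 3.32 ± 0.89 (SE) as the log2 fold change, 9.96-fold higher (adjusted p = 0.0347), which ranked 248 of all tested genes by size. Every library of W9706 was above every library of B73, but the call was lost in 5 of the 6 fits that left out 1 library. These were the fits without B73 replicate 1, 2 or 3 (edgeR adjusted p of 0.0886, 0.0815 and 0.0676) and without W9706 replicate 1 or 2 (0.0861 and 0.0749), with log2 fold changes of 2.82 to 3.57 in those fits. Without W9706 replicate 3 it was 3.80 with an edgeR adjusted p of 0.00533.

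The gene bx3, which encodes the monooxygenase of the following step, was higher in W9706 by a smaller factor. B73 replicates 1, 2 and 3 had 75.7, 119 and 50.6 CPM, and W9706 replicates 1, 2 and 3 had 218, 225 and 131 CPM. The lines were apart, though the highest B73 library and the lowest W9706 library were close. The difference, 1.22 ± 0.35 (SE) on the log2 scale or 2.34-fold, passed the edgeR test (adjusted p = 0.0335). The call was lost without B73 replicate 1 or 3 (edgeR adjusted p of 0.103 and 0.0622) and without W9706 replicate 1 or 2 (0.0895 and 0.0947). Those fits put it at 0.98 to 1.17 on the log2 scale.

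The remaining monooxygenase genes of the cluster, bx4 and bx5, whose enzymes complete the series of oxygen additions that gives DIBOA, overlapped between lines. For bx4, B73 replicates 1, 2 and 3 were at 441, 450 and 341 CPM and W9706 replicates 1, 2 and 3 at 398, 408 and 219 CPM. Its log2 fold change was -0.27, with a 95% interval of -0.83 to 0.30 and an edgeR adjusted p of 0.437, and the sign turned with library size alone (0.017). For bx5 the same libraries had 363, 487 and 347 CPM in B73 and 535, 523 and 328 CPM in W9706. W9706 replicate 3 was the lowest of the 6 libraries for both genes, while W9706 replicates 1 and 2 lay within the B73 range for bx4 and above it for bx5. The log2 fold change of bx5 was 0.21, with a 95% interval of -0.29 to 0.72 and an edgeR adjusted p of 0.491. These intervals include no change and, for bx4 and bx5 alike, end below the 2-fold mark.

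The gene bx8, whose glucosyltransferase attaches glucose to DIBOA, was the steadiest of the 8 genes in W9706. Its levels, by replicate number, were 185, 256 and 225 CPM for B73 and 176, 195 and 172 CPM for W9706. Only the highest W9706 library reached into the B73 range. Its log2 fold change was -0.29, with a 95% interval of -0.61 to 0.024 and an edgeR adjusted p of 0.137. A related gene outside the cluster, bx9, encodes another such glucosyltransferase and could not be matched to an identifier in the files.

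Of the later steps, the dioxygenase gene bx6 did not pass the test and the methyltransferase gene bx7 fell. Levels of bx6, by replicate number, were 87.5, 119 and 87.7 CPM for B73 and 125, 115 and 70.9 CPM for W9706. W9706 held both the highest and the lowest of these values. The log2 fold change of bx6 was 0.078, with a 95% interval of -0.46 to 0.62 and an edgeR adjusted p of 0.821.

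Levels of bx7, by replicate number, were 20.8, 11.9 and 13.6 CPM for B73 and 4.39, 6.05 and 3.09 CPM for W9706. All 3 W9706 libraries were below all 3 B73 libraries. W9706 averaged 4.51 ± 1.48 CPM against 15.4 ± 4.77 CPM for B73 (SD over 3 libraries each). This is -1.78 ± 0.30 (SE) on the log2 scale, 3.44-fold lower in W9706 (adjusted p = 0.00407, edgeR), which ranked 1294 of all tested genes by size. With any 1 library left out it was -2.05 to -1.49 and the call held. BX6 and BX7 both act after the cluster's enzymes, and bx7 was the only one of the 8 genes called lower. The log2 fold changes of bx4 (-0.27) and bx8 (-0.29) were also below 0 but did not pass the test.

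**Figure D2:**
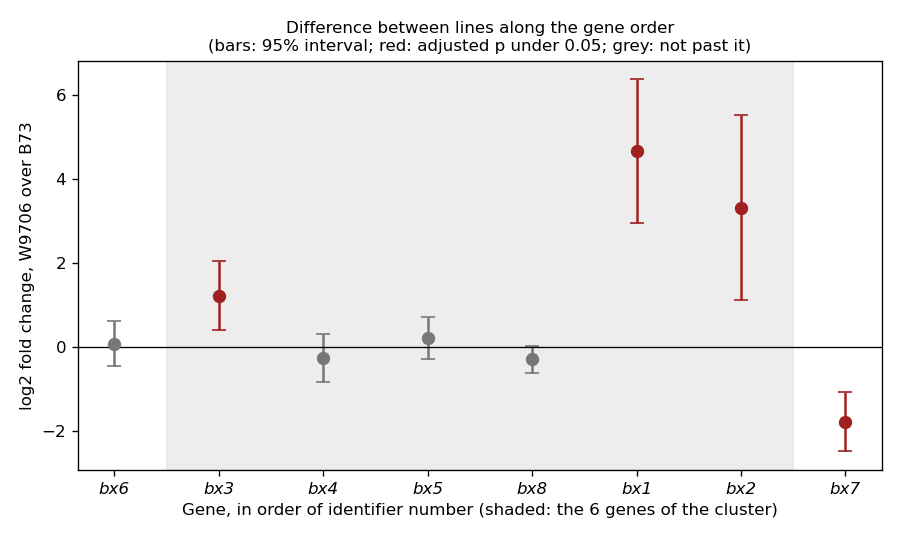
Log2 fold change of W9706 over B73 for each gene in order of identifier number, with bars for the 95% interval from edgeR; the shaded span holds the 6 genes of the cluster, red marks an adjusted p under 0.05 and grey the rest. The genes past the test in the cluster are bx3 at one end (1.22) and bx1 and bx2 at the other (4.66 and 3.32), with bx4, bx5 and bx8 between them near 0.

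Within the cluster the genes did not share 1 shift between lines. Of its 6 genes 3 were higher, 0 were lower in the edgeR test, and 3 did not pass, where 15.2% of all tested genes were higher and 19.0% lower. None of the cluster genes that were below B73 had an unadjusted p under 0.05, as the sole gene lower at that level was bx7, and DESeq2 also called 0 of the cluster genes lower. The 6 log2 fold changes ran from -0.29 to 4.66, with a median of 0.72. By gene order, bx1 and bx2 are next to each other at one end and are the 2 genes with the largest rises. The gene bx8, which comes just before bx1 in that order, was at -0.29. The intervals of bx1 (2.96 to 6.37) and bx2 (1.12 to 5.51) do not overlap those of bx4, bx5 or bx8.

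Ratios taken inside a library are free of any scaling between libraries, and they were formed between bx1 and each other gene with 0.5 added to each count. The log2 ratio of bx2 to bx1, by replicate number, was 2.95, 1.86 and 3.75 for B73 and 1.20, 1.31 and -0.33 for W9706. The lines were apart, with a difference of -2.12 in the mean, so that bx2 was lower relative to bx1 in W9706. The difference of W9706 and B73 in this log2 ratio was -3.95 for bx3 and -7.00 for bx7, and it lay between -5.53 and -5.03 for bx4, bx5, bx6 and bx8. Each of the 7 ratios gave an exact two-sided permutation p of 0.1 (0.1 after Benjamini-Hochberg adjustment over the 7), the smallest that 3 against 3 libraries allow. The lines did not overlap in 7 of 7 ratios, but neither did they in 98.9% of the 22134 ratios of all other tested genes to bx1. The ratios therefore show the size of the bx1 difference, and their lack of overlap is nothing particular to the benzoxazinoid genes.

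The summed level of the 8 genes overlapped between lines, unlike the levels of bx1, bx2, bx3 and bx7. By replicate number it was 1186, 1459 and 1068 CPM for B73 and 1659, 1624 and 965 CPM for W9706. B73 averaged 1238 ± 201 CPM and W9706 1416 ± 391 CPM (SD over 3 libraries each). This sum is not corrected for gene length and gives more weight to longer transcripts. The part of the sum taken by bx1 was 0.0199% to 0.219% in B73, against 2.35% to 3.70% in W9706. In B73 bx2 took 0.299% to 0.984%, against 1.87% to 8.50% in W9706. For bx3 it was 4.74% to 8.18% in B73, against 13.1% to 13.9% in W9706. For bx4 it was 30.9% to 37.2% in B73 and 22.7% to 25.1% in W9706, and for bx5 30.6% to 33.4% and 32.2% to 34.0%. For bx7 it was 0.813% to 1.76% in B73, against 0.265% to 0.372% in W9706. For bx8 it was 15.6% to 21.1% in B73, against 10.6% to 17.9% in W9706, and for bx6 7.37% to 8.21%, against 7.06% to 7.56%. The parts of bx1, bx2 and bx3 were thus higher in every W9706 library and those of bx4 and bx7 lower. The parts of bx5, bx6 and bx8 overlapped between lines. Parts of 1 sum depend on each other, and the level of bx4 itself overlapped between lines. In level, 50.6% of all tested genes did not overlap, and no such share was formed for parts of a sum.

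Within a line the libraries differed most for bx1 and bx2, the genes that also differed most between lines. For bx1 the highest B73 library was 15.0 times the lowest, and the factor was 2.71 in W9706. For bx2 it was 3.66 in B73 and 7.81 in W9706, and for bx3 it was 2.36 and 1.71. For bx4, bx5, bx6, bx7 and bx8 it was 1.32 to 1.76 in B73 and 1.13 to 1.96 in W9706. Low counts add to the spread of bx1 in B73, where replicate 3 held 4 counts. The spread of bx2 in W9706 rests on 637 to 3918 counts.

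The genes also tended to be low in the same libraries. W9706 replicate 3 was the lowest of its line for 8 of the 8 genes, where 39.8% of all tested genes were lowest in that library. B73 replicate 3 was the lowest of its line for 5 of the 8 genes, all of them in the cluster, where 34.5% of all tested genes were lowest there. B73 replicate 2 was the highest of its line for 6 of the 8, against 32.5% of all tested genes. The order of the libraries was not tested, and genes vary together across libraries, so that 8 genes are not 8 separate observations of it. With 6 libraries in 2 separate lines no correlation between the genes is given.

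**Figure D3:**
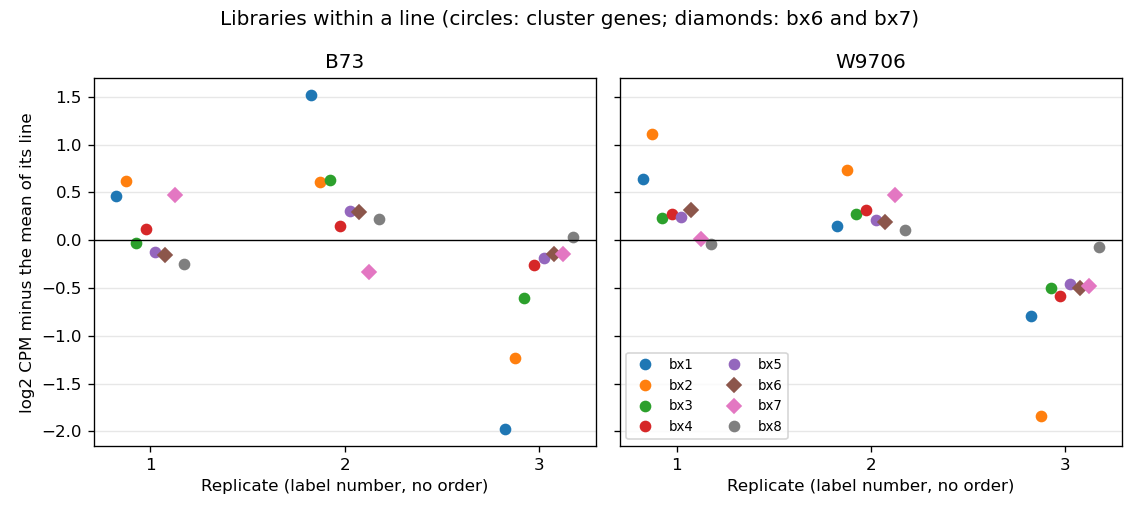
Log2 CPM of each gene in each library minus the mean of the 3 libraries of its line, with B73 on the left and W9706 on the right; circles are the 6 cluster genes and diamonds bx6 and bx7. All 8 genes are below 0 in W9706 replicate 3, and bx1 and bx2 spread furthest from 0 in both lines.

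Gene models with identifiers close to those of the cluster were set beside it, since identifiers of this series are numbered along the chromosomes. The identifiers numbered from 10 before bx3 to 10 after bx2 include 19 of other gene models, of which 9 were tested, with 2 higher, 4 lower and 3 not past the edgeR test. The 1 other identifier between bx3 and bx2 in the files, numbered 48704, had 0 counts in all libraries. The identifier after bx2, Zm00001d048711, averaged 101 ± 25.5 CPM in W9706 against 227 ± 28.0 CPM for B73 (SD over 3 libraries each), a difference of -1.17 ± 0.20 (SE) on the log2 scale (adjusted p = 0.00349, edgeR). It was named after its values were seen, for its place beside bx2, and it moved in the direction opposite to bx1 and bx2. Among the models that rose, Zm00001d048694 had the largest fitted change (edgeR adjusted p of 0.00497), with 3, 0 and 0 counts in the B73 libraries and 31, 28 and 25 counts in the W9706 libraries, by replicate number. The ratio of these counts per library size was 19.96, with a 95% exact binomial interval of 6.60 to 98.7 that covers counting error only, so its size is poorly known. The largest fall was that of Zm00001d048692, at -1.57 ± 0.22 with an edgeR adjusted p of 0.00223. Neither the files nor the gene table pair these identifiers with names.

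**Figure D4:**
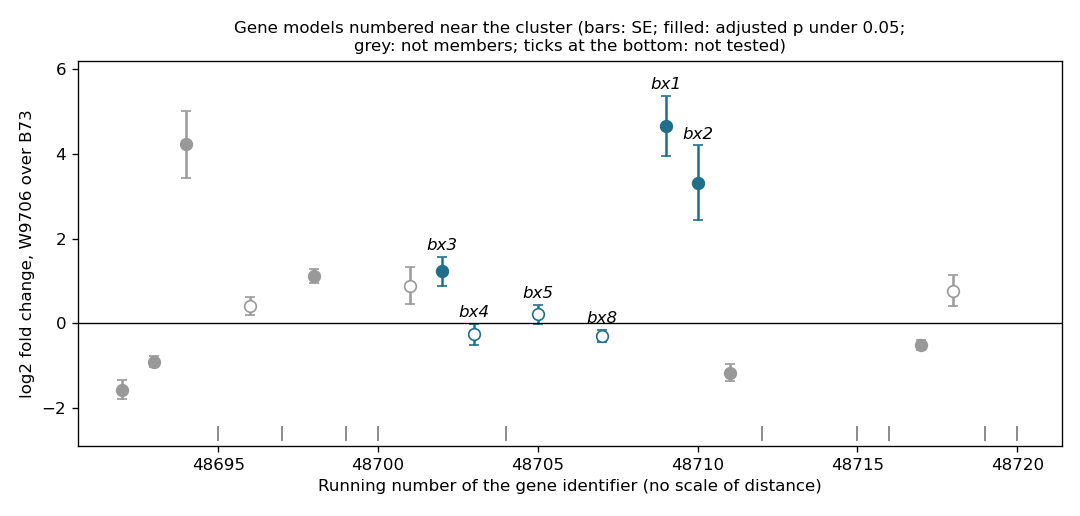
Log2 fold change of W9706 over B73 (bars, SE) by the running number of the gene identifier, which is no scale of distance; blue points are benzoxazinoid genes, grey points other gene models, filled points passed an adjusted p under 0.05, and ticks at the bottom are gene models that were not tested; the highest grey point rests on 3 counts over the B73 libraries. Rises and falls lie side by side along the order, with bx1 (4.66) and bx2 (3.32) followed by a model at -1.17.

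To find genes that behaved like the group, the log2 CPM of every tested gene with a mean of at least 10 CPM was centred and compared with the mean centred profile of the 8 genes over the 6 libraries. The closest of 12564 genes was Zm00001d037636, with a root mean square difference of 0.205 on the log2 scale, and the second was at 0.217. Zm00001d037636 had 54.4 ± 16.7 CPM in W9706 against 24.6 ± 7.20 CPM for B73 (SD over 3 libraries each). This gap between lines is a description and was not tested, since the profile used to find the gene already holds the difference between lines. Among the benzoxazinoid genes bx3 was closest to their mean profile, at 0.223, and bx1 was furthest, at 2.23. The mean profile thus stood near bx3 and was far from bx1, from bx7 (1.41) and from bx2 (1.29). The remaining genes lay between 0.423 (bx5) and 0.736 (bx8).

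Of 12 further genes listed by symbol (bx9 to bx14, the glucosidase genes glu1 and glu2, and igl1, tsa1, tsb1 and tsb2 of indole and tryptophan synthesis), 8 have an entry in the gene table, but 0 could be matched to an identifier of the files. Their levels are therefore not reported.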

How the data were processed

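Each deposited file gives 1 library's raw counts, as whole numbers, for every gene. The layout is that of STAR, a tool that the submitters' processing notes list. Which version of it, which genome build and which annotation were used is not given in the sources used here. The unstranded count was used. Per the labels' protocols, libraries were made with a NEBNext Ultra kit, which does not mark strand, so overlapping and antisense genes cannot be told apart. The 4 summary lines (unmapped reads, reads in no gene, ambiguous and multimapping reads) were kept out. Multimapping reads are listed as 0 in every library, so reads shared between related genes, such as bx2 to bx5, may be missing, and ambiguous reads made up 1.06% to 1.16%.

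All genes were fitted together with edgeR 4.0.16 in R 4.3.3, using filterByExpr by line (22135 genes kept, all 8 benzoxazinoid genes among them), TMM scaling, robust dispersions and the quasi-likelihood test. A standard error is the log2 fold change divided by the root of F, and intervals use its degrees of freedom. The test was run on simulated data first. It recovered 63 of 100 genes with a true log2 fold change of 1 in size and 94 of 100 at 2, with 9 false calls. Those data held 22135 genes with 100 changed at each size, and some 2-fold changes were missed there. In the deposited libraries 34.2% of tested genes passed, and a larger share passing loosens the unadjusted p that is needed. Recovery at that share was not tested. DESeq2 1.42.0, other scalings, filters and count columns, and fits without single libraries were alternatives. Same-numbered libraries of the lines deviated together weakly (correlations of 0.11, 0.13 and 0.22). Differently numbered libraries of the lines had correlations of -0.228 to 0.107. Replicate numbers were treated as pairing the libraries only in an alternative fit with a block. No pair of libraries was a duplicate, with counts differing by at least 11.2 times the sampling variance. Limits from 3 counts cover counting error only.

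The genes, lists and tests were chosen with earlier results of these data known. All 8 genes are named, with the largest rise and fall among models numbered nearby and the nearest profile. Zm00001d048711 was added after its values were seen, for its place beside bx2. The pairing of bx names with identifiers came with the gene list, since 0 of the 44146 Zm00001d identifiers are in the gene table. Leaf and root markers listed by symbol could not be matched for the same reason, so the tissue label was not checked. No sequence is printed.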

Additional observations from a re-analysis of the deposited data

How the results depend on the processing

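bx1 kept its direction and its call in all 16 alternatives run, with log2 fold changes of 4.19 to 5.55, and bx4, bx5, bx6 and bx8 were called in none of the 16. bx7 lost its call in glmTreat against a 2-fold change alone, a stricter test by construction (-1.78, adjusted p of 0.0907). In that test bx2 (3.32) and bx3 (1.22) also lost theirs, leaving 1 benzoxazinoid gene higher and 0 lower (1 lower at an unadjusted p under 0.05 there, and 1 lower by DESeq2); of all genes 276 were higher and 568 lower, and of the models numbered nearby 1 and 0 (1 lower at an unadjusted p under 0.05, and 4 by DESeq2). With no filter on low counts bx2 (3.32, adjusted p of 0.0973) and bx3 (1.23, adjusted p of 0.0863) lost their calls, leaving 1 higher. bx2 also lost its call in the second strand column (3.25) and without B73 replicate 2 and W9706 replicate 1 together (3.07), where 2240 of all genes were higher. Leaving out 1 library gave 2.82 to 3.80 for bx2, 0.98 to 1.61 for bx3, -0.082 (without W9706 replicate 1) to 0.29 for bx6, 1 to 3 benzoxazinoid genes higher, and 2070 (without W9706 replicate 2) to 2977 of all genes higher. Library size alone turned bx4 to 0.017 and gave 8165 higher and 2622 lower of all genes and 4 higher of the models nearby. The other causes were not tested. The replicate block changed no call among the 8 genes, with 3 higher and 1 lower, and gave 4.79 for bx1, 3.18 for bx2, 1.27 for bx3 and -1.78 for bx7. With the block the edgeR adjusted p was 0.00361 for bx1, 0.000333 for bx2, 0.000718 for bx3 and 0.00476 for bx7. Without it the edgeR values were 0.00406, 0.0347, 0.0335 and 0.00407 in the same order. The fits that left out libraries had no block. Depth limits bx1 in B73, where 4 to 71 counts set the size of the fold change.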
